A study of Drosophila melanogaster with 2 samples.

Results

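The odorant (Or), gustatory (Gr) and ionotropic (Ir) receptor genes of Drosophila melanogaster were examined for binding of Stat92E near their transcription start sites (TSSs). Members were all protein-coding genes whose symbol is Or, Gr or Ir followed by a number, plus Orco, in the annotation used. This gave 180 genes, 60 in each family with Orco counted in Or, out of 13945 protein-coding genes on 6 chromosome arms. Another 7 genes with such symbols are annotated as pseudogenes and were left out. The members lie on 2L (31), 2R (46), 3L (35), 3R (43) and X (25).

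The samples were whole embryos of mixed sex aged 0 to 12 h from a transgenic line, strain Stat92E-GFP, that stably expresses Stat92E with eGFP at its C terminus. There was 1 group of 2 biological replicates, numbered 1 and 3 in the labels. Chromatin was sonicated to 200 to 800 bp and the tagged protein was precipitated with an antibody to GFP, per the sample descriptions, although the antibody label reads Stat92E. The promoter driving the fusion and the number of insertions are not given in the labels, and no control sample was analysed here. All comparisons are therefore between these genes and the other genes of the same peak lists, and carry no test between samples. In whole embryos, binding in few cells cannot be told apart from weak binding in many.

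Each chemosensory neuron of the fly makes only a small choice of receptors. Odorant receptors work together with the co-receptor Orco, gustatory receptors detect sugars, bitter compounds, carbon dioxide and contact pheromones, and ionotropic receptors, which derive from glutamate receptors, detect acids and amines and also temperature and humidity. Stat92E is the transcription factor of the JAK/STAT pathway, which acts in embryonic patterning and binds palindromic sites made of the half-sites TTC and GAA with a spacer of 3 or 4 bases.

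Few receptor genes had a Stat92E peak at their start. In the list that the authors thresholded by IDR (irreproducible discovery rate, a measure of replicate agreement), called the reproducible list here, 6 of 180 members had a summit within 1 kb of a TSS. That is 3.33% of the members (95% exact binomial interval 1.23 to 7.11), beside 21.3% of all protein-coding genes. The 6 genes were Or88a, Gr93a, Gr97a, Or9a, Ir60b and Gr32a. Only at Gr93a was the receptor's own TSS the nearest one to the summit. That is 0.556% of the members, beside 15.0% of all genes with a reproducible promoter summit nearest to their own TSS. At the other 5 genes the summit lay nearer to the start of a neighbouring gene of another family. The interval covers counting error only and treats genes as independent.

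Gr93a, a bitter receptor needed for the taste response to caffeine, carried the only reproducible summit that lay nearest to a receptor start. The summit was 334 bp upstream of the TSS of Gr93a (FBgn0041229, on 3R, plus strand), in intergenic sequence. The peak spans 21831934 to 21832403 on 3R in build dm6. It ranked 446 in the reproducible list, with a signal score of 253.5. In replicate 1 the summit was at the same base, with rank 396 and signal 158.1. In replicate 3 it was also at the same base, with rank 918 and signal 92.3. This signal comes from the peak calling of the authors and has no stated unit, so it ranks peaks within 1 list only. The nearest start of any gene outside the receptor families lies 8811 bp from the TSS of Gr93a, so no neighbour's promoter falls into the window.

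The sequence under this summit is shown because it holds both 4-base-spacer STAT sites found at a receptor's own summit. The window is the 101 bp centred on the summit, with capitals for matches to TTC and GAA with any 4 bases between them, from RefSeq's copy of Release 6, the assembly of dm6.
Gr93a, chr3R:21832119-21832219, plus strand: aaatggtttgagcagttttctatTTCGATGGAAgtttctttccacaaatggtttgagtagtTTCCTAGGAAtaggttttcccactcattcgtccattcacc
The site TTCGATGGAA lay at 21832142 to 21832151, with its centre 22 bp from the summit. The site TTCCTAGGAA lay at 21832180 to 21832189, with its centre 16 bp from the summit on the other side. A stretch of 12 bp, aaatggtttgag, occurs at 2 places in this window, 45 bp apart, with a site after each copy. Among all 2358 promoter summits of the reproducible list, 4.50% held a site with this spacer within 50 bp of the summit.

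Weaker peaks surrounded the Gr93a summit in replicate 1 but not in replicate 3. The pooled list, called on both replicates together, had further summits 133 bp upstream (rank 6097) and 732 bp downstream of the TSS (rank 16048), the downstream one inside an exon of Gr93a. Replicate 1 had summits 135 bp upstream (rank 2803) and 736 bp downstream (rank 18563). Replicate 3 listed the strong summit alone within 1.5 kb of this TSS.

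At Or88a, Or9a and Gr32a the summit lay in intergenic sequence between the receptor and a gene that starts nearer. Or88a, an odorant receptor tuned to fatty acid methyl esters of fly odour, had the highest rank of all members, 387, with signal 266.0. This summit was 918 bp upstream of Or88a and 206 bp from the TSS of CG12402. Its rank was 270 in replicate 1 (signal 177.8) and 1326 in replicate 3 (signal 83.1). The summit counted for Or9a, 981 bp upstream, lay 79 bp from the TSS of Neb-cGP. Its rank was 2013, and the replicates placed it alike, at 2338 in replicate 1 (signal 87.8) and at 2160 in replicate 3 (signal 69.6). Gr32a, a bitter receptor that also detects a male pheromone, had a summit 625 bp upstream, 328 bp from the TSS of Idua, which encodes a lysosomal iduronidase. This peak was near the end of the list, at 3297 of 3603, and stood at 4431 in replicate 1 (signal 66.8) and 4189 in replicate 3 (signal 52.3).

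The windows of the same 101 bp length at these 3 summits are given for comparison with Gr93a, with capitals again for 4-base-spacer sites.
Or88a, chr3R:14108477-14108577, plus strand: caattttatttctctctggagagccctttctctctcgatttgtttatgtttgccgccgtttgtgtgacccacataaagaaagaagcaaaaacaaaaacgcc
Or9a, chrX:10460607-10460707, plus strand: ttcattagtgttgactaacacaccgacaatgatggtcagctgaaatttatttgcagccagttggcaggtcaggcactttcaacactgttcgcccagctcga
Gr32a, chr2L:11113339-11113439, plus strand: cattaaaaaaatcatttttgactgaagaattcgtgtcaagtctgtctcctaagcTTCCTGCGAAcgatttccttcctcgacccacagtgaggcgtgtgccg
The Gr32a window held 1 site, TTCCTGCGAA, at 11113393 to 11113402 with its centre 9 bp from the summit. No site with a spacer of 3 or 4 bases lay within 50 bp of the summits of Or88a and Or9a.

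At Gr97a and Ir60b the summits lay in exons of the neighbour. Gr97a, a gustatory receptor gene on the minus strand of 3R, had 2 reproducible summits, 464 and 694 bp upstream, which lay 19 and 249 bp from the TSS of CG5521. Their ranks were 1862 and 3254. In replicate 3 the first was matched by a summit of rank 1986, and in replicate 1 no summit lay within 200 bp of it. The second was matched in both, with rank 1796 in replicate 1 and 9240 in replicate 3. Ir60b, a pharyngeal receptor that limits sugar intake, had a summit 451 bp upstream, 86 bp from a TSS of Letm1, a gene of a mitochondrial ion exchanger. Its rank was 2675 in the reproducible list, 2467 in replicate 1 (signal 85.9) and 4063 in replicate 3 (signal 52.9).

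**Figure D1:**
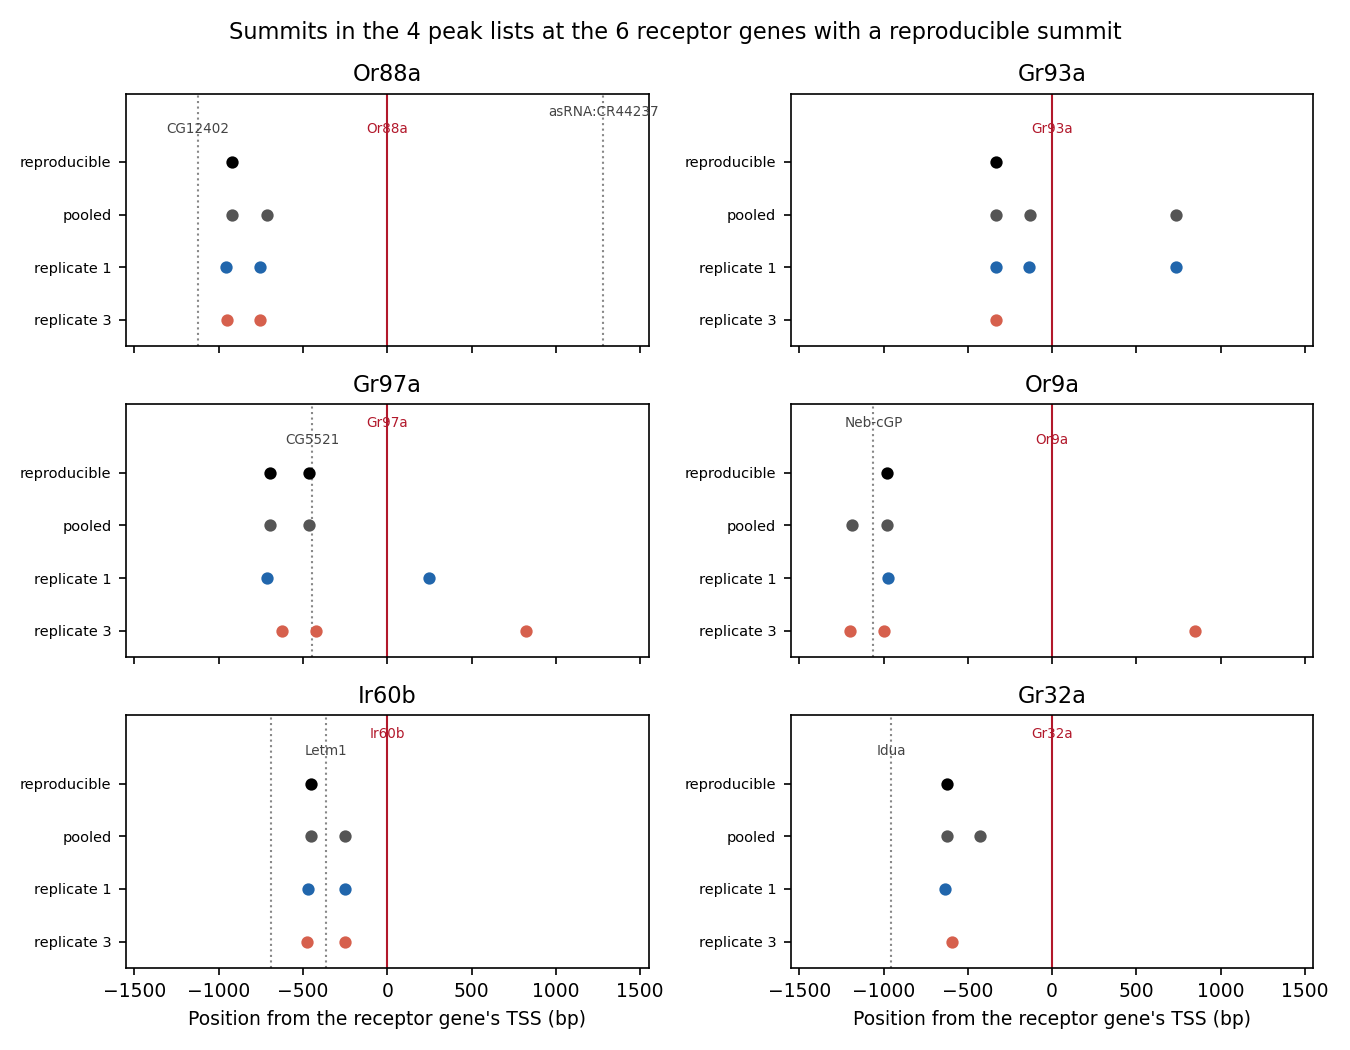
Summits within 1.5 kb of the TSS of each of the 6 receptor genes with a reproducible summit, by peak list. The red line is the TSS of the receptor gene, dotted lines are TSSs of other genes, and positions run along the receptor gene with upstream to the left. In 5 panels a dotted line stands nearer to the reproducible summit than the red line, and Gr93a is the exception.

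The window of 1 kb divides a continuum of distances. Just inside it lay the summits of Or9a at 981 bp and of Or88a at 918 bp. Just outside it lay those nearest to Or71a at 1002 bp, Gr59a at 1356 bp, Gr59f at 1432 bp, Or46a at 1487 bp and Gr59e at 1563 bp. With a window of 2 kb, 11 members had a reproducible summit, beside 25.2% of all genes. With 500 bp there were 3, beside 19.1% of all genes.

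The 3 families had similar low counts in the reproducible list. They were 2 of 60 in Or (3.33%), 3 of 60 in Gr (5.00%) and 1 of 60 in Ir (1.67%), and their intervals overlap (0.406 to 11.5, 1.04 to 13.9 and 0.0422 to 8.94). By arm, 1 of 31 members on 2L had such a summit, 1 of 46 on 2R, 3 of 43 on 3R and 1 of 25 on X. On 3L there was a summit at 0 of 35 members, which allows a share of up to 8.57%. For all protein-coding genes the share ran from 16.3% on X to 23.4% on 3L.

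**Figure D2:**
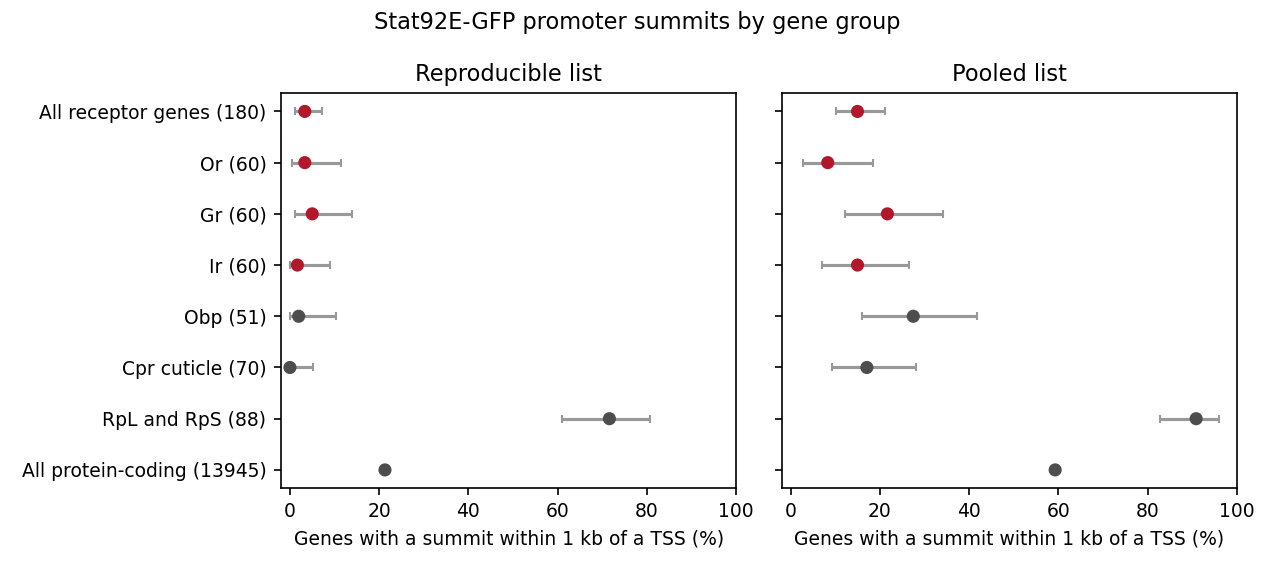
Share of genes with a summit within 1 kb of a TSS, in the reproducible list (left) and the pooled list (right), for the receptor genes and other groups, with the number of genes in parentheses. Points are shares in percent and bars are 95% exact binomial intervals. The receptor families lie at 1.67 to 5.00% in the reproducible list and at 8.33 to 21.7% in the pooled list, with all protein-coding genes at 21.3% and 59.3%.

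Widening the search to weaker peaks added members but kept their share below that of all protein-coding genes. The pooled list has 30000 peaks, and the lowest −log10 q-value in it is 0.396, which is weak support for its last entries. In it 27 members had a promoter summit (15.0%, interval 10.1 to 21.1), beside 59.3% of all protein-coding genes. These were 5 Or, 13 Gr and 9 Ir genes. The pooled share was 17.1% in Cpr cuticle protein genes, 27.5% in odorant-binding protein genes and 90.9% in RpL and RpS genes. The best pooled rank of the 27 members had a median of 15735, and that of all genes with a promoter summit had a median of 5348. The 27 members held 37 summits, of which 18 lay nearest to the TSS of the receptor itself, at 14 members. These 14 are 7.78% of the members, and a pooled promoter summit nearest to the gene's own TSS was found at 50.1% of all genes.

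The replicates listed partly different receptor genes. Replicate 1 had a promoter summit at 29 members (16.1%), beside 58.5% of all genes, and replicate 3 at 32 members (17.8%), beside 61.0%. Both lists held 17 members (9.44%), beside 53.9% of all genes. These 17 are 58.6% of the members in replicate 1 and 53.1% of those in replicate 3. For all genes the shared part was 92.0% of replicate 1 and 88.3% of replicate 3. The member summits were weaker, with a median best rank of 16491 in replicate 1 and 14668 in replicate 3. For all genes these medians were 5447 and 5940, and the shared parts were not compared at equal rank. In Ir genes the counts were 13 in replicate 1 and 6 in replicate 3, in Gr genes they were 10 and 16, and in Or genes 6 and 10.

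**Figure D3:**
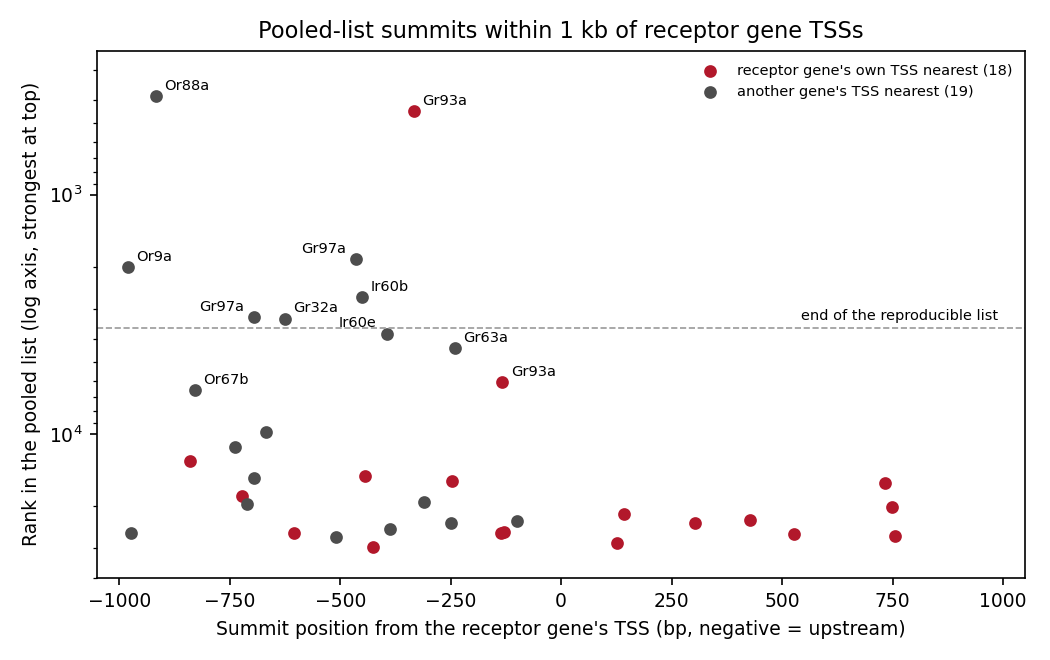
Rank in the pooled list (log axis, strongest at the top) against position from the TSS of the receptor gene, for the 37 summits within 1 kb. Red points lie nearest to the receptor's own TSS (18) and grey points nearest to another gene's TSS (19). Above the dashed line, which marks the end of the reproducible list at rank 3603, the only red point is Gr93a at rank 446.

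The next ranked pooled summits below the end of the reproducible list included some at promoters of neighbours. The summit 394 bp from Ir60e (rank 3806) lay 21 bp from the TSS of CG13585. Gr63a, which forms the carbon dioxide receptor together with Gr21a, had a summit 241 bp upstream (rank 4383), 56 bp from the TSS of Lamtor4, a gene of a lysosomal signalling complex. The summit counted for Or67b (rank 6575) lay 49 bp from the TSS of Cyp40. Weaker summits at neighbours followed. That counted for the sugar receptor gene Gr5a (rank 11334) lay 97 bp from the TSS of Tre1, which guides germ cell migration. The summits counted for Ir48c (ranks 15282 and 26045) lay 178 and 100 bp from TSSs of ths, an FGF ligand gene, and that counted for Gr94a (rank 19196) lay 148 bp from a TSS of p53.

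A pooled summit nearest to the receptor's own TSS that was matched by a summit within 200 bp in each replicate list was found at 6 members (3.33%), beside 39.2% of all protein-coding genes. This count was added after the values were seen. Gr93a was 1 of the 6, with pooled rank 446 and signal 253.5. The others were Gr93d (rank 12988, signal 55.0), the humidity receptor gene Ir68a (14964, signal 49.5), Gr8a (20128, signal 39.2), the sugar receptor gene Gr61a (21554, signal 37.1) and Or85f (26853, signal 30.7). The median rank of these summits was 17546 for the members and 5013 for all genes. Ir68a stood at 25093 in replicate 1 and at 12297 in replicate 3, and its pooled summit lay in an exon of a long noncoding RNA gene. JMJD5 starts 91 bp from the TSS of Gr61a, and the matching summit of replicate 1 lay 144 bp from the pooled summit. For Gr93d the matching summit of replicate 1 lay 1016 bp from the TSS, outside the 1 kb window. Gr47b, Gr89a and Gr32a also had a pooled summit nearest to their own TSS and a promoter summit in both replicate lists. At these genes no single pooled summit nearest to the own TSS was matched in both. Gr47b had summits 303 bp downstream (23585), matched in replicate 3, and 526 bp downstream (26257), matched in replicate 1. That of Gr89a, a bitter receptor gene (25817), was matched in replicate 3 and lay in an exon of the neighbour Decay. The weaker summit of Gr32a, 425 bp upstream (29767), had no match in replicate 1. The stronger summit of Gr32a, 625 bp upstream (3297), was matched in both replicates but lay nearest to the TSS of Idua.

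Of the 4 co-receptor genes 0 had a reproducible promoter summit (exact binomial interval up to 60.2%), beside 21.3% of all genes. In the pooled list 1 (25%) had one, beside 59.3%. For Orco, the shared co-receptor of the odorant receptors, the nearest reproducible summit was 16587 bp away and the nearest pooled summit 16372 bp away. For Ir76b these distances were both 74934 bp. Ir8a had a pooled summit at 4172 bp and a reproducible one at 79955 bp. Ir25a was the only co-receptor gene with pooled promoter summits, 136 bp upstream (rank 25990) and 126 bp downstream of a TSS (rank 28669), matched in replicate 1 only. The upstream summit lay in an exon of the neighbour tank, and the downstream one in an exon of Ir25a. The reproducible summit nearest to Ir25a was 2595 bp away.

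Counts by role rest on few genes. Of 25 odorant receptor genes used in the larval olfactory organ, 0 had a reproducible promoter summit, which allows a share of up to 12.0%, and 1, Or67b, had a pooled one. Of 9 sugar receptor genes 0 had a reproducible summit (up to 33.3%) and 2, Gr5a and Gr61a, a pooled one. Of 5 broadly expressed bitter receptor genes 1 (20.0%), Gr32a, had a reproducible summit and 2 (40.0%) a pooled one. Of the 2 carbon dioxide receptor genes 0 had a reproducible summit and 1, Gr63a, a pooled one. Of 6 temperature and humidity receptor genes 0 had a reproducible summit (up to 50%) and 2, Ir25a and Ir68a, a pooled one. The background for these counts is 21.3% of all genes in the reproducible list and 59.3% in the pooled list. In the reproducible list the share of the bitter receptors lay near this background, and the limits of the sugar and of the temperature and humidity receptors lay above it.

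Reproducible summits were also distant from most receptor genes. The median distance from a member TSS to the nearest reproducible summit was 33420 bp, beside 9479 bp for all protein-coding genes. The family medians were 35682 bp for Or, 40022 bp for Gr and 19179 bp for Ir. No reproducible summit lay within 10 kb of 135 members (75%), beside 48.7% of all genes. This share was 77.1% in Cpr cuticle protein genes, 68.6% in odorant-binding protein genes and 15.9% in RpL and RpS genes. Their median distances were 22540, 18965 and 103 bp, so the distance was not particular to receptor genes. To the nearest pooled summit the median was 9079 bp for members and 312 bp for all genes.

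**Figure D4:**
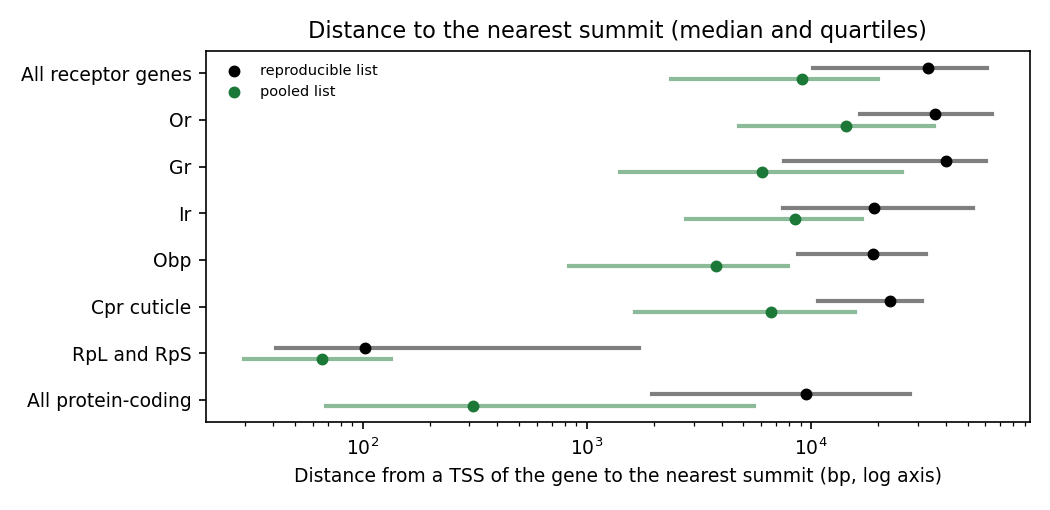
Distance from a TSS of each gene to the nearest summit (log axis), with medians as points and quartiles as bars, for receptor genes and other groups. Black is the reproducible list and green the pooled list. The receptor genes have medians of 33420 and 9079 bp, and all protein-coding genes have medians of 9479 and 312 bp.

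Receptor genes lacked the peak of summit density that all protein-coding genes had at the annotated 5′ end. Only 27.8% of members have an annotated 5′ untranslated region, beside 96.5% of all genes. For the other members this end is the start of the coding sequence, and its effect on the profile was not tested. In the 500 bp just upstream of the 5′ end there were 7.78 pooled summits per 100 members, beside 45.7 per 100 genes overall. In the 500 bp just downstream there were 1.67 per 100 members, beside 32.5 per 100 genes. From 4500 to 5000 bp upstream the values were 7.78 for members and 15.6 for all genes. In the reproducible list, members had 0 summits in the 1 kb downstream of the 5′ end, which allows up to 1.67 per 100 genes, where all genes had 6.48 and 1.20 per 100 in the nearer and farther 500 bp.

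**Figure D5:**
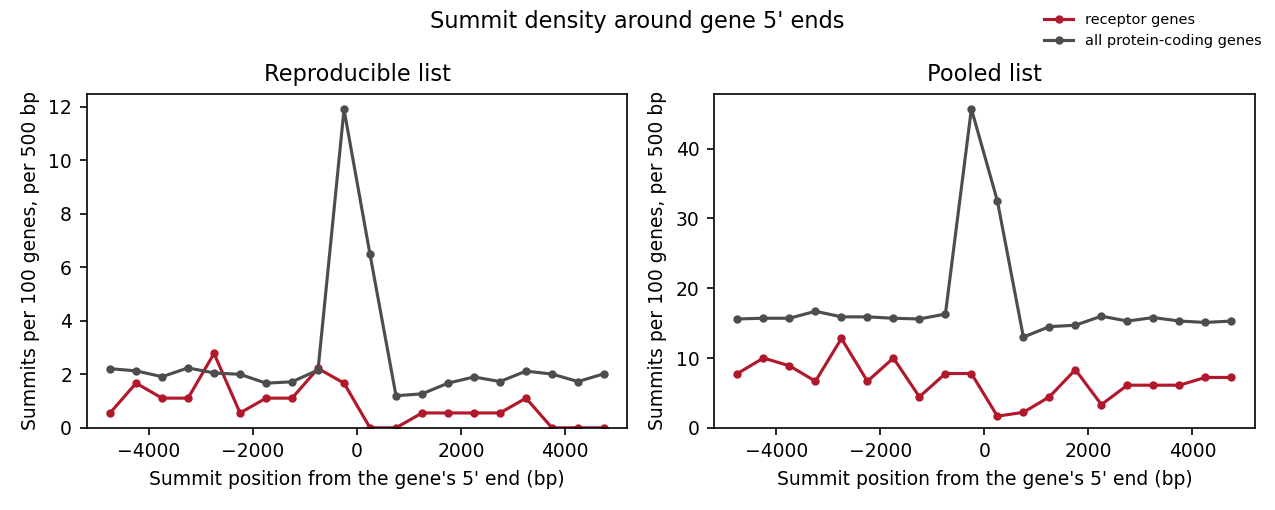
Summits per 100 genes in bins of 500 bp by position from the annotated 5′ end of the gene, with upstream to the left, for receptor genes (red) and all protein-coding genes (grey). The grey line in the pooled panel reaches 45.7 just upstream of the 5′ end, where the red line is at 7.78.

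The surroundings and gene models of the members were set beside those of other genes. The TSS of another annotated entry, not among the 180 members, lay within 2 kb of 72 members (40.0%). Another entry's TSS lay within 2 kb of 69.9% of all protein-coding genes. Such entries include transposon copies, as at 336 bp from Ir40a, and receptor pseudogenes, as Or98P at 861 bp from Or98a. A neighbour in this count is therefore not always a gene of another family. Among the members without such a neighbour, 1 of 108 (0.926%) had a reproducible summit, beside 13.0% of genes without one. Among those with a neighbour, 5 of 72 (6.94%) had one, beside 24.9% of such genes. In the pooled list the counts were 5 of 108 (4.63%), beside 43.5%, and 22 of 72 (30.6%), beside 66.1%. Only 50 members (27.8%) have an annotated 5′ untranslated region, beside 96.5% of all protein-coding genes, so for the other members the annotated start is the start of the coding sequence. Of the members with an annotated 5′ untranslated region 4 of 50 had a reproducible summit, beside 22% of such genes, and of the 130 without one 2 had a summit (1.54%), beside 2.24% of the 491 such genes, and these shares lay close together. In the pooled list the counts were 13 of 50 (26%), beside 60.6%, and 14 of 130 (10.8%), beside 21.4%. The part of these features in the low counts was not tested. Of the 180 members, 80 lie in 28 groups with TSSs within 10 kb of each other, and the start of 38 members lies inside another gene, so members are not independent of each other.

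STAT sites were also counted around the 5′ ends of the receptor genes. The site TTCNNNGAA, which reads the same on both strands, lay within 1 kb of the 5′ end of 96 members (53.3%), beside 47.0% of all genes. Of these 96 members 3 (3.12%) had a reproducible promoter summit and 13 (13.5%) a pooled one, beside 3.57% and 16.7% of the 84 members without the site. The full palindrome TTCCNGGAA, a subset of it, lay there in 15 members (8.33%), beside 3.8% of all genes. In the window from 250 bp before to 50 bp after the 5′ end it was found at 5 members (2.78%), beside 0.423% of all genes. Of the 15 members with the palindrome, 0 had a promoter summit in the reproducible list or the pooled list, which allows a share of up to 20.0%. The replicate lists had summits within 1 kb at 3 of these 15. Or71a had one in replicate 1 (rank 4027, 998 bp upstream) and one in replicate 3 (rank 3541, 973 bp upstream), and its reproducible summit, at 1002 bp, lay just outside the window. Or67a (rank 8586, 80 bp downstream) and Gr93b (rank 21935, 209 bp upstream) had a summit in replicate 3. Of the 530 genes with the palindrome among all protein-coding genes, 25.3% had a reproducible promoter summit and 61.3% a pooled one. These motif counts around 5′ ends were added after the peak counts were known.

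Some palindromes within 250 bp of a receptor's 5′ end are shown as examples of such sites, none within 50 bp of a pooled summit, with capitals for TTCCNGGAA and 10 bases on either side, read on the plus strand.
Gr23a, chr2L:2669843-2669871: gacccgccgtTTCCTGGAAgttatcttct
Or71a, chr3L:15078536-15078564: tttaggggcgTTCCTGGAAccttgacgtt
Or22b, chr2L:1522547-1522575: cccggtgacaTTCCCGGAAaacttttagc
Or85b, chr3R:8511151-8511179: cagtgactgcTTCCAGGAActtattatcc
Ir7e, chrX:7881463-7881491: ccaagccccaTTCCCGGAAcaaagtgctc
The site of Gr23a lay 34 bp downstream of the 5′ end and that of Or71a 103 bp upstream. The site of Or22b lay 136 bp upstream, and those of Or85b and Ir7e lay 193 and 202 bp downstream. The nearest pooled summit was 58459 bp from the site of Gr23a, 18053 bp from that of Or22b, 39386 bp from that of Or85b and 10530 bp from that of Ir7e. Or71a, an odorant receptor of the maxillary palp, came closest, with a pooled and reproducible summit 899 bp from its site. Over all 14 palindromes near receptor genes, none lay within 50 bp of a pooled summit.

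At the summits counted for receptor genes, STAT sites were searched within 50 bp. Of the 7 reproducible summits, 2 (28.6%, Gr93a and Gr32a) held a 4-base-spacer site within 50 bp, beside 4.50% of all promoter summits. TTCNNNGAA was found at 0 of 7 (up to 42.9%), beside 5.30%. A site of either spacer was at 28.6% of these 7 summits, beside 9.58%. Among the 37 pooled summits, the same 2 (5.41%) held a 4-base-spacer site, beside 3.60% of all pooled promoter summits. Of the 37, 0 held TTCNNNGAA (up to 8.11%), beside 3.91% of all pooled promoter summits. A site of either spacer was at 5.41% of the 37, near the 7.36% of all pooled promoter summits. The promoter element TATCGATA, the binding site of DREF and its own reverse complement, was at 0 of the 37 (up to 8.11%), beside 2.88%. Around 5′ ends, from 250 bp before to 50 bp after, TATCGATA was found at 1 member (0.556%), beside 9.37% of all genes, and GGTCACACT, part of a core promoter motif searched on both strands, at 0 (up to 1.67%), beside 6.05%. Only 27.8% of members have an annotated 5′ untranslated region, beside 96.5% of all genes. Where it is lacking, the annotated start is that of the coding sequence, so this window may miss the core promoter. The GC content of this window averaged 39.6% in members and 39.1% in all genes, with SD 5.84 and 7.73 across genes.

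Other genes of chemosensation showed mixed counts. Of 16 regulators of chemosensory neuron fate, 4 had a reproducible promoter summit (25%), beside 21.3% of all genes, and at all 4 the gene's own TSS was nearest. They were Xbp1 (rank 874, 2 bp from the TSS), pros, a homeodomain factor of neural fate (rank 1294, 45 bp), Poxn, which specifies taste bristles (rank 2539, 80 bp), and pdm3, a POU factor of olfactory neurons (rank 2644, 306 bp). Of 10 accessory genes 1, ppk29, had such a summit (rank 2548), and it lay 11 bp from the TSS of eEF5, a translation factor gene. Of 51 odorant-binding protein genes 1, Obp56h, had one (rank 1731), and of 20 CheA and CheB genes 3 did (CheA56a, CheB42c and CheB93a). The CheA56a summit lay 27 bp from the start of a tRNA gene. Among other families, 0 of 70 Cpr cuticle protein genes had a reproducible promoter summit, which allows up to 4.29%, and 63 of 88 genes with RpL or RpS symbols did (71.6%).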

How the data were processed

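The authors deposited 4 peak lists of Stat92E-GFP ChIP-seq on build dm6: 1 per replicate against a shared control, 1 on both replicates pooled, and 1 thresholded by IDR, per the lists of files supplied with each sample. Neither the tools for alignment and peak calling nor the cutoff of IDR are named in those lists or in the labels. The deposited signal is a score without a stated unit, used only for ranks within a list, and the deposited −log10 q-value took 1 value, 3.62, in the reproducible list. The pooled and replicate lists were 30000 peaks long each. Read depth is unknown.

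A gene was counted when a summit lay within 1 kb of a TSS of any of its transcripts (Ensembl 115, BDGP6.54). The nearest TSS was taken among 23973 annotated entries of any kind, transposon copies included. A summit was matched in a replicate within 200 bp. Shares have 95% exact binomial intervals. Limits for counts of 0 use 3 counts, which differ from the upper end of that interval, except that the co-receptor genes have the exact limit. Both cover counting error only. No test was run, because there is 1 group. Counting was tested on simulated summits. Members and gene lists were chosen with earlier results of these data known. Genes were named by a fixed rule: members with a reproducible promoter summit, co-receptor genes, up to 10 members with the strongest own-promoter pooled summit seen in both replicates, up to 5 leading genes of each other list, and nearest neighbours. Other named genes were chosen after their values were seen. Python 3.11.15, numpy 2.4.6, pandas 2.3.3 and scipy 1.17.1 were used.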

Additional observations from a re-analysis of the deposited data

How the results depend on the processing

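The counts moved with the window, the peak set and the treatment of neighbours. Against 6 members in the reproducible list, there were 3 with a 500 bp window, 11 with 2000 bp and 2 with the stricter 50% of peaks by signal. There was 1 when the own TSS had to be nearest, and 1 among the 108 members without another annotated entry's TSS within 2 kb. The share of all genes under these settings ran from 10.8% to 25.2%. With the 5′ end of the gene alone there were 6, beside 19.8% of all genes, and with overlap of the peak interval 7, beside 22.1%. Without replicate 1 and without replicate 3 there were 5 each (5 to 5), beside 20.4% and 21.0% of all genes. IDR needs both replicates, so these counts used the strongest peaks of the remaining replicate's list, not a list thresholded by IDR. Gr93a, Gr97a, Or88a and Or9a were in both sets. Gr32a was in neither, and without replicate 1 Ir60b was lost and Or71a gained. In replicate 3 Or71a ranked 3541 and Ir60b 4063. Under the first 5 of these settings in turn, Or (2) had 0, 4, 1, 0 and 0 members, Gr (3) had 2, 6, 1, 1 and 1, and Ir (1) had 1, 1, 0, 0 and 0. Leaving out a replicate gave 2 to 3 for Or, 2 for Gr and 0 to 1 for Ir. In the pooled list, 27 members became 16 with 500 bp, 40 with 2000 bp, 12 with the stricter 50% and 14 with the own TSS nearest. The shares of all genes were 54.1%, 65.1%, 49.7% and 50.1% in turn, beside 59.3% in the main setting. In both replicate lists, 17 became 8, 31, 9 and 8 in the same order. There the shares of all genes were 47.6%, 60.7%, 43.0% and 41.7%, beside 53.9% in the main setting. With 100 bp on each side of the 37 pooled summits, TTCNNNGAA was at 1 (2.7%) instead of 0 and the 4-base-spacer site at 4 (10.8%) instead of 2. Over all pooled promoter summits these shares rose as well, from 3.91% to 7.21% and from 3.6% to 6.95%. The cause of these shifts was not tested beyond what the settings themselves remove or add. No paired analysis was possible because there is 1 group. With depth unknown, an absent summit means only that none was listed.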
